A study of Homo sapiens with 6 samples.

Results

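The 30 genes described here belong to the unfolded protein response of the endoplasmic reticulum and to the ATF4 programme of the integrated stress response. They were listed by name, with earlier results of these data known, and for each the brightest probe set carrying its symbol was used. The annotation named a probe set for 19 of the 30, among 14884 named genes in all. CHAC1, SLC7A5, SLC3A2, PPP1R15A, DNAJB9, EDEM1, DNAJC3, HSPA5, HSP90B1, HERPUD1 and PDIA4, the other 11, were not analysed here. Transcripts were measured in MDA-MB-231, an established human triple-negative breast carcinoma cell line, on 3 arrays of control cells and 3 of cells labelled NR1D1 KO. NR1D1 encodes REV-ERBα, a heme-binding nuclear receptor that represses transcription as part of the circadian clock. Both groups had 200 µM H2O2 for 72 h before RNA was extracted, and without untreated arrays a difference between genotypes cannot be told apart from a difference in the response to peroxide. The titles number the arrays as biological replicates, but whether they were separate cultures, or whether the knockout is 1 clone, is not given in the sources used here. If they were not, the p-values reflect technical spread among arrays only.

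Secretory and membrane proteins fold in the endoplasmic reticulum, and unfolded proteins there activate 3 membrane sensors. IRE1 (ERN1) is a kinase and RNase that splices XBP1 mRNA into the form that encodes an active transcription factor. PERK (EIF2AK3) phosphorylates the translation factor eIF2α, which lowers protein synthesis in general while favouring translation of ATF4, and ATF6 is cut in the Golgi to release a factor that turns on chaperone genes. Other eIF2α kinases respond to lack of amino acids, lack of heme or viral RNA and also act through ATF4, whose targets serve amino acid supply and, through CHOP, cell death. Arrays report transcript levels only, so neither splicing of XBP1, phosphorylation of PERK or eIF2α, nor cleavage of ATF6 was measured.

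In knockout cells the transcripts of the sensors ERN1 and EIF2AK3, of the chaperone HYOU1 and of CHOP (DDIT3) fell, and that of the serine synthesis enzyme PSAT1 rose. Of the 19 measured genes 4 fell and 1 rose at an adjusted p of 0.05 (limma, Benjamini-Hochberg over all named genes). Over all named genes 4.74% fell and 4.74% rose, or 9.49% in both directions, against 21.1% and 5.26% of these 19. These genes are mostly bright, and without the dimmest 50% of genes 11.5% of all genes fell and 13.9% rose, against 18.8% and 6.25% of the 16 that stayed. In 15 of the 19 the log2 change was below 0, and their median change was -0.17, where the median over all named genes was 0.0039. Without any 1 of the 6 arrays ERN1 was the 1 gene that fell and PSAT1 the 1 that rose, so 3 of the 4 falls rest on having all 6 arrays.

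ERN1, the gene of IRE1, measured 7.43, 7.30 and 7.41 on the control arrays and 6.13, 6.03 and 5.91 on the knockout arrays (log2, on which a difference of 1 is a 2-fold difference). The groups were 1.17 apart at their nearest values, the widest gap among these genes. The means were 7.38 ± 0.071 and 6.02 ± 0.11 (SD, n = 3 each), a fall of 2.56-fold with a 95% interval of -1.56 to -1.15 for the log2 change (limma, adjusted p = 0.000114). By size of fall ERN1 ranked 32 among the 14884 named genes. Its adjusted p lay between 0.000739 and 0.00108 with 1 array left out.

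EIF2AK3, the gene of PERK, stood at 7.55, 7.64 and 7.44 in control and at 7.18, 7.21 and 7.06 in knockout arrays, with no overlap. It fell 1.31-fold, from 7.54 ± 0.099 to 7.15 ± 0.08 (SD, n = 3 each, limma adjusted p = 0.0286). This call was lost without any 1 of the 6 arrays, at adjusted p of 0.0526 to 0.0975, and with the change itself between -0.44 and -0.35. ATF6, the third sensor, gave 9.73, 9.70 and 9.66 in control and 9.60, 9.76 and 9.66 in knockout arrays, and the groups overlapped. Its log2 change was -0.029, with a 95% interval of -0.21 to 0.15 (adjusted p = 0.881).

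**Figure D1:**
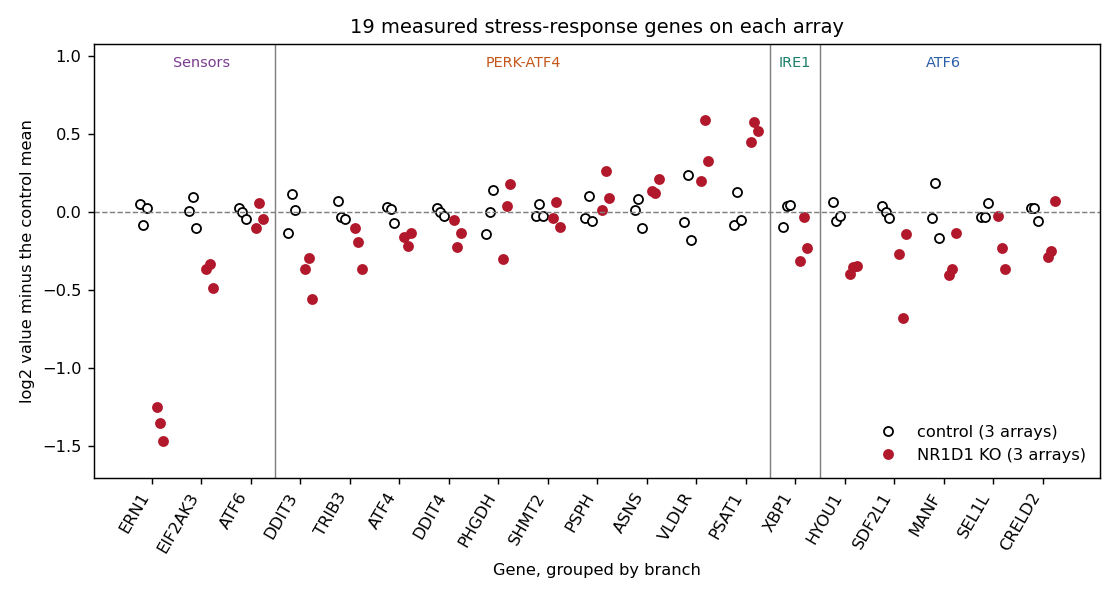
Each point is 1 array: the log2 value of a gene minus its mean on the 3 control arrays (y axis), for the 19 measured genes grouped by branch (x axis), with open circles for control and filled circles for NR1D1 KO. The 3 knockout arrays of ERN1 lie more than 1 log2 unit below control, those of PSAT1 lie above control, and the points of most other genes stay within about 0.5 of 0.

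The ATF4 branch had no common direction. Of its 14 genes 10 were measured, of which 1 fell, 1 rose and 8 passed in neither direction, and 6 lay below 0 and 4 above, with a median log2 change of -0.024. That median was 0.049 without the dimmest 50% of genes, which drops DDIT3 and PHGDH, and 0.047 without knockout replicate 1. ATF4 itself, whose product is controlled mainly at translation, measured 8.24, 8.23 and 8.14 in control and 8.05, 7.99 and 8.07 in knockout arrays. The groups did not overlap, but the change of -0.17 (95% interval -0.35 to 0.0051) missed the threshold (adjusted p = 0.233). Groups without overlap were common in this comparison, at 28.7% of all named genes and 10 of these 19.

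DDIT3 encodes CHOP, a transcription factor that favours cell death under lasting stress, and it measured 5.19, 5.44 and 5.34 in control and 4.96, 5.03 and 4.77 in knockout arrays. It fell 1.32-fold, from 5.32 ± 0.13 to 4.92 ± 0.14 (SD, n = 3 each, limma adjusted p = 0.0461), a value just inside the threshold. DDIT3 was dim, with a mean of 5.12 over all arrays, at percentile 29 of the named genes by level. The call was lost without any 1 array (adjusted p of 0.0593 to 0.14). It was also lost under quantile normalization of the deposited values (0.0572) or centring on array medians (0.0583). TRIB3, a pseudokinase gene induced by CHOP and ATF4 that restrains them, gave 7.42, 7.32 and 7.31 in control and 7.25, 7.16 and 6.99 in knockout arrays. Its change was -0.22 (95% interval -0.43 to -0.007, adjusted p = 0.205). DDIT4, which encodes the mTORC1 inhibitor REDD1, gave 9.53, 9.50 and 9.48 against 9.45, 9.28 and 9.37, a change of -0.14 (adjusted p = 0.373). TRIB3 and DDIT4 were lower on all 3 knockout arrays than on any control array without passing the test.

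Of the amino acid genes of the same branch PSAT1 was the 1 that passed, with PSPH and ASNS above control and PHGDH and SHMT2 slightly below it. Serine is made from a glycolytic intermediate by PHGDH, PSAT1 and PSPH in turn, and SHMT2 converts it to glycine in mitochondria. PSAT1, the aminotransferase, measured 8.93, 9.14 and 8.96 in control and 9.46, 9.59 and 9.53 in knockout arrays. It rose 1.43-fold, from 9.01 ± 0.11 to 9.53 ± 0.064 (SD, n = 3 each, limma adjusted p = 0.00943), and passed without each array in turn (0.0143 to 0.0451). With all probe sets of the array fitted and adjusted together the adjusted p was 0.0503.

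The steps on either side of PSAT1 did not pass. PHGDH gave 5.20, 5.34 and 5.48 in control and 5.04, 5.38 and 5.52 in knockout arrays, a change of -0.026 (95% interval -0.33 to 0.28, adjusted p = 0.937). PHGDH was dim, with a mean of 5.33 over all arrays, at percentile 33 of the named genes by level. PSPH gave 7.92, 8.06 and 7.90 against 7.97, 8.22 and 8.05, a change of 0.12 (95% interval -0.098 to 0.34, adjusted p = 0.519). The interval of PSAT1 was 0.31 to 0.72, so that of PSPH reached into it and that of PHGDH ended below it, and the difference between these genes was not tested. SHMT2 gave 6.57, 6.65 and 6.57 in control and 6.56, 6.66 and 6.50 in knockout arrays, a change of -0.023 (adjusted p = 0.912). ASNS, which makes asparagine and is a classical ATF4 target, gave 7.13, 7.20 and 7.01 against 7.25, 7.24 and 7.33. It was higher on every knockout array, by 0.16 between the means (95% interval -0.031 to 0.35, adjusted p = 0.304). VLDLR, a lipoprotein receptor gene that ATF4 can induce, gave 5.89, 6.19 and 5.77 against 6.15, 6.54 and 6.28, a change of 0.37 (adjusted p = 0.143) with the widest spread between arrays of these genes in control.

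**Figure D2:**
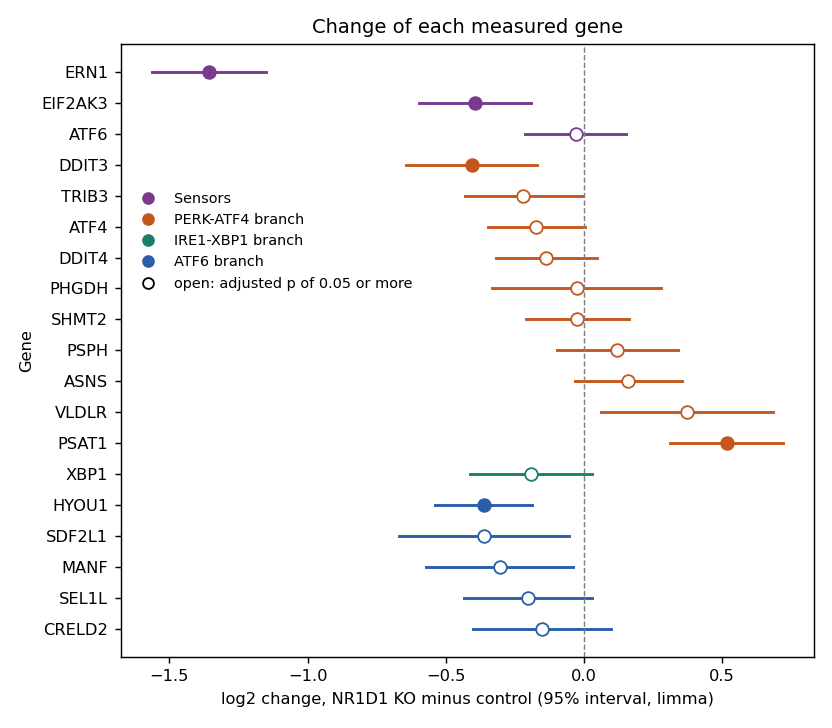
The log2 change of each gene between NR1D1 KO and control (x axis) is shown with its 95% interval from limma for the 19 measured genes (y axis), coloured by branch, with filled points for an adjusted p below 0.05. ERN1 stands apart at -1.36, the 5 ATF6 branch genes lie below 0, and the ATF4 branch runs from -0.40 (DDIT3) to 0.52 (PSAT1).

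The IRE1 branch could be read from 1 of its 4 genes. XBP1, the transcript that IRE1 splices and that ATF6 induces, measured 7.82, 7.95 and 7.96 in control and 7.60, 7.88 and 7.68 in knockout arrays, and the groups overlapped. The change was -0.19 (95% interval -0.41 to 0.031, adjusted p = 0.294). The 2.56-fold fall of ERN1 therefore stood beside a total XBP1 transcript that was not called, and the value says nothing of its spliced share.

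The ATF6 branch, made up of chaperones, folding factors and a degradation factor, lay below control throughout, but 1 gene passed. All 5 of its 9 genes that were measured had a log2 change below 0, with a median of -0.30, and this held in all 15 alternatives for each gene that the alternative kept. The median moved to -0.21 without control replicate 2 and to -0.20 without knockout replicate 2. HYOU1, a chaperone that helps BiP exchange its nucleotide, measured 10.20, 10.08 and 10.11 in control and 9.74, 9.78 and 9.79 in knockout arrays. It fell 1.29-fold, from 10.13 ± 0.062 to 9.77 ± 0.024 (SD, n = 3 each, limma adjusted p = 0.0227). The call was lost without any 1 array (adjusted p of 0.0528 to 0.0885) and when its 2 probe sets were averaged (-0.25, adjusted p = 0.103). The second, dimmer probe set gave -0.13.

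SDF2L1, a partner of luminal DnaJ chaperones, gave 6.76, 6.72 and 6.68 in control and 6.45, 6.04 and 6.58 in knockout arrays. Its change of -0.36 was as large as that of HYOU1, with a 95% interval of -0.67 to -0.053, and the spread of the knockout arrays was wider (SD 0.28 against 0.038 in control, adjusted p = 0.15). MANF, a secreted survival factor that resides in the organelle, gave 6.74, 6.96 and 6.61 against 6.37, 6.41 and 6.64, a change of -0.30 (adjusted p = 0.161). These groups overlapped at 1 knockout array. SEL1L, the partner of the ubiquitin ligase HRD1 in degradation of misfolded proteins, gave 9.45, 9.45 and 9.54 against 9.46, 9.25 and 9.12, a change of -0.20 (adjusted p = 0.287). CRELD2, a stress-induced folding factor, gave 6.05, 6.05 and 5.97 against 5.74, 5.78 and 6.10, a change of -0.15 (adjusted p = 0.475). Knockout replicate 3 was the highest of the knockout arrays in 4 of the 5 genes of this branch, and the lowest in SEL1L.

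Promoter sequences are shown for the 4 measured genes with a match to an endoplasmic reticulum stress element, the site through which ATF6 acts with the factor NF-Y. ASNS is shown as the measured gene with a match to the C/EBP-ATF element TGATGNAA, a site for ATF4. Sites of other sequence or farther from a start were not searched, so a gene without a match may still have an ATF4 site. Each is the 250 bases upstream of a RefSeq transcript start (GRCh38.p14), read 5′ to 3′ on the gene's strand, with matched motifs in capitals. HYOU1 lies at chr11:119057206-119057455 on the minus strand, SDF2L1 at chr22:21642052-21642301 on the plus strand, CRELD2 at chr22:49918384-49918633 on the plus strand, XBP1 at chr22:28800570-28800819 on the minus strand and ASNS at chr7:97872409-97872658 on the minus strand.
HYOU1: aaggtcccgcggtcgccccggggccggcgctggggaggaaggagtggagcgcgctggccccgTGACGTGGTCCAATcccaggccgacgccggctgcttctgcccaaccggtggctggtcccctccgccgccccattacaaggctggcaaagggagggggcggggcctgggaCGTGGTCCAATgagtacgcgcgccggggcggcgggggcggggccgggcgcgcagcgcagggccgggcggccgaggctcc
SDF2L1: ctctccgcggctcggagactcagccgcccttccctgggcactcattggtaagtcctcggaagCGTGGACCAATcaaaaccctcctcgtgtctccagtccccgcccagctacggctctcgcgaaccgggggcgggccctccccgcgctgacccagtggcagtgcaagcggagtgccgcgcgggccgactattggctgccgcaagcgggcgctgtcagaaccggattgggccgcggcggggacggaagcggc
CRELD2: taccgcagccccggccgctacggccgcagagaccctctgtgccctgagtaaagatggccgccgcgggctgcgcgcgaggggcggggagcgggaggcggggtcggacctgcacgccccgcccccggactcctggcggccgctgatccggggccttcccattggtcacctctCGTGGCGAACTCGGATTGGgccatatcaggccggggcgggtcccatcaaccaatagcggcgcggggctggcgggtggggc
XBP1: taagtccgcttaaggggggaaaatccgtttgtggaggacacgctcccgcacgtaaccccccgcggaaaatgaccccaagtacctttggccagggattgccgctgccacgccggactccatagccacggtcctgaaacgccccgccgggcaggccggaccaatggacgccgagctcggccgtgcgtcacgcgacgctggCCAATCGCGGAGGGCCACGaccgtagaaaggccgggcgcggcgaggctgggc
ASNS: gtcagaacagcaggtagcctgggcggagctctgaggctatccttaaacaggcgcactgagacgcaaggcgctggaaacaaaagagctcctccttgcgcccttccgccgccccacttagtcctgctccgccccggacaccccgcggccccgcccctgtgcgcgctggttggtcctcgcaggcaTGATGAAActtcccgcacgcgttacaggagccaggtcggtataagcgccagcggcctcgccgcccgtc

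The motifs were searched on both strands in 35116 promoters, each from 250 bases before to 50 after a start. The stress element ERSE, which is CCAAT and CCACG with 9 bases between them, was in 0.0769% of them and in 4 of the 28 listed genes with a promoter, XBP1, CRELD2, HSPA5 and HSP90B1. Its variant ERSE-II, which is ATTGG and CCACG with 1 base between them, was in 0.0541% and in HYOU1, SDF2L1 and HERPUD1. HYOU1 held it at 2 places, starting 185 and 79 bases upstream, both on the opposite strand, and the first of these overlaps a match to the unfolded protein response element core TGACGTGG at 188 bases (in 0.729% of promoters). The C/EBP-ATF element TGATGNAA was in 3.62% and in ASNS, CHAC1, SLC3A2 and HERPUD1. PSAT1, DDIT3 and ERN1 held none of the 6 motifs searched in this window. The cAMP response element TGACGTCA was in 1.85% and in PPP1R15A, and TAGGTCA, the half-site of REV-ERBα with its flank, was in 1.85% and in HSPA5. None of the 17 measured genes with a promoter held these last 2, and PSPH and SHMT2 had no promoter to search.

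The 4 measured genes with an ERSE or ERSE-II all lay below control, at -0.36 for HYOU1 and SDF2L1, -0.15 for CRELD2 and -0.19 for XBP1, and HYOU1 was the 1 that passed. Of all 19 measured genes 15 lay below control and 4 above. MANF (-0.30) and SEL1L (-0.20) of the ATF6 branch lay below control without a match. Whether the direction went with the motif was not tested. ASNS, with the match to the C/EBP-ATF element, lay above control without passing. A match of letters is a description of the promoter and not evidence of a bound factor.

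**Figure D3:**
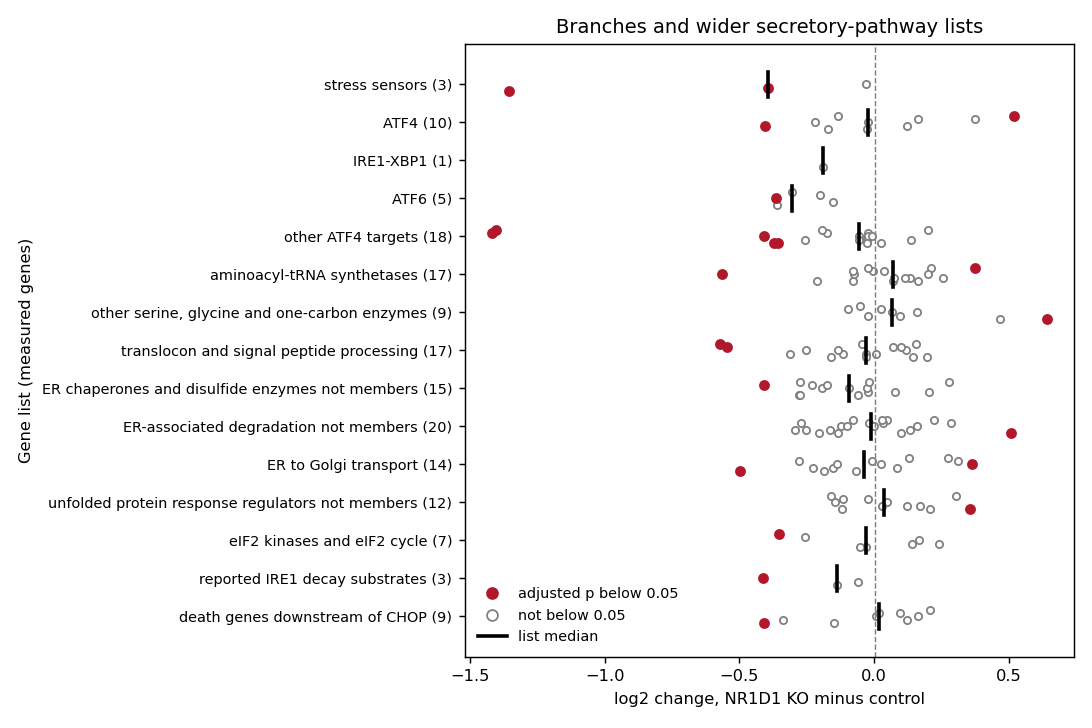
Each point is the log2 change of 1 gene (x axis) in a branch or wider list (y axis, with the number of measured genes), filled where the adjusted p was below 0.05, with black bars for list medians and a dashed line at the median of all named genes. The sensor and ATF6 branches have the lowest medians, at -0.39 and -0.30, and the medians of the wider lists lie between -0.14 and 0.069.

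Beyond these genes, 11 lists covered further ATF4 targets and the steps of the secretory pathway. Of 18 measured other ATF4 targets 5 fell and none rose, with a median change of -0.057 and 15 of 18 below 0. Among all named genes 4.74% fell, 4.74% rose and 49.0% lay below 0. In the fit without the dimmest 50% of genes 11.5% of all genes fell and 13.9% rose, and this list was not recounted there. CTH, which makes cysteine from cystathionine, fell 2.65-fold, from 7.65 ± 0.051 to 6.24 ± 0.12 (SD, n = 3 each, limma adjusted p = 9.43e-05). GDF15, a stress cytokine gene, fell 2.67-fold, from 8.39 ± 0.19 to 6.97 ± 0.035 (adjusted p = 0.000185). Both passed without each array in turn, and both were larger changes than any in the branch itself. ERO1A, the oxidase that recharges disulfide formation and a target of CHOP, fell 1.33-fold (adjusted p = 0.0316), ATF3, a stress transcription factor, 1.29-fold (0.0461) and SQSTM1, the autophagy receptor p62, 1.28-fold (0.0271). With 1 array left out ATF3 missed the threshold each time (0.0738 to 0.16), ERO1A passed only without knockout replicate 1 (0.0224, otherwise 0.0794 to 0.103) and SQSTM1 only without knockout replicate 3 (0.0365, otherwise 0.066 to 0.0964). ATF3 and SQSTM1 are named here because they complete the count, after their values were seen.

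The synthetase, one-carbon and eIF2 lists held 4 calls among 33 measured genes, or 12.1%, beside 9.49% of all named genes. In the fit without the dimmest 50% of genes 11.5% of all genes fell and 13.9% rose, and these lists were not recounted there. Of 17 aminoacyl-tRNA synthetase genes, a class that ATF4 can induce, SARS1 fell 1.48-fold (adjusted p = 0.0093) and VARS1 rose 1.3-fold (0.0263), with a list median of 0.069. The call of VARS1 was lost when control replicate 1 (0.0952), 2 (0.0872) or 3 (0.0549), or knockout replicate 1 (0.0643) or 2 (0.0882), was left out. Of 9 other serine, glycine and one-carbon genes SHMT1, the cytosolic counterpart of SHMT2, rose 1.56-fold, from 6.71 ± 0.047 to 7.35 ± 0.052 (SD, n = 3 each, limma adjusted p = 0.00185). It passed without each array in turn, at 0.0121 or less. Of 7 genes of the eIF2 kinases and the eIF2 cycle, IMPACT, which restrains the amino acid sensor GCN2, fell 1.28-fold (0.0278), a call lost without any 1 array (0.0564 to 0.108).

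The 4 lists of secretory pathway steps held 6 calls among 66 measured genes, or 9.09%, beside 9.49% of all named genes. These lists are bright, with mean levels of 8.20 to 8.68 on control arrays. In the fit without the dimmest 50% of genes 11.5% of all genes fell and 13.9% rose. The lists were not recounted in that fit, so their share was not compared with that of equally bright genes. Of 17 translocon and signal peptide genes SPCS3, a signal peptidase subunit, fell 1.49-fold (adjusted p = 0.0026) and SRP54, of the signal recognition particle, 1.46-fold (0.0265, but 0.0693, 0.087 and 0.0784 without control replicate 1, 2 and 3). Of 15 other chaperone and disulfide genes ERO1A was the 1 that passed, with 12 of 15 below 0 and a median of -0.092. Of 20 other degradation genes FAF2, which recruits the ATPase VCP, rose 1.42-fold (0.00973). Of 14 transport genes SEC23A, of the COPII coat, fell 1.41-fold (0.0168, but 0.0631 and 0.0598 without control replicate 2 and 3), and MCFD2, of a cargo receptor, rose 1.29-fold (0.0318, lost without any 1 array at 0.0621 to 0.121). These lists hold many targets of spliced XBP1, and their medians were -0.092 to -0.011, beside 0.0039 for all named genes.

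The remaining lists bear on IRE1 and CHOP. Of all named genes 9.49% passed in either direction and 49.0% lay below 0. In the fit without the dimmest 50% of genes 11.5% of all genes fell and 13.9% rose, and these lists were not recounted there. Of 12 other regulators TXNDC12, a luminal thioredoxin, rose 1.28-fold (limma adjusted p = 0.0301), a call lost when control replicate 1 (0.106) or 3 (0.11), or knockout replicate 2 (0.0948) or 3 (0.0818), was left out. Of 9 reported substrates that IRE1 cuts 3 were measured, and DGAT2, of triglyceride synthesis, fell 1.33-fold (0.0187, but 0.0744, 0.0702 and 0.0667 without control replicate 1, control replicate 3 and knockout replicate 2). All 3 lay below 0. Of 9 death genes linked to CHOP only ERO1A, already counted above, passed, and their median was 0.019.

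Each of the 5 called genes was set beside the 10 measured coding genes on either side of it. Their neighbours had median log2 changes of 0.033 for ERN1, -0.042 for EIF2AK3, 0.0014 for DDIT3, 0.027 for PSAT1 and 0.0056 for HYOU1. Around EIF2AK3 15 of 20 neighbours lay below 0, as EIF2AK3 did, and 1 of them, PROM2, was called lower. The neighbours below 0 were 8 of 20 for ERN1, 10 for DDIT3, 9 for PSAT1 and 10 for HYOU1. Around DDIT3 2 neighbours were called lower, LRP1 (-0.46) and GLI1 (-0.35), and 1 higher, NEMP1 (0.49). At ERN1 the nearest gene on the lower-numbered side, ICAM2, an adhesion receptor gene, also fell. It measured 7.56, 7.45 and 7.59 in control and 6.24, 6.31 and 6.19 in knockout arrays, a 2.44-fold fall (limma adjusted p = 9.43e-05), while TEX2 on the other side changed by -0.095. ICAM2 was the 1 called gene among the 20 neighbours of ERN1 and passed without each array in turn. At PSAT1 the nearest genes also lay above control, CEP78 by 0.42 (adjusted p = 0.0698) and RASEF by 0.47. RASEF had an adjusted p of 0.0163 with all arrays, but of 0.0614 and 0.0674 without control replicate 1 and 3 and of 0.0585 without knockout replicate 2. ICAM2, CEP78 and RASEF were picked after their values were seen. Whether the change of a neighbour had a part in that of any of the 5 called genes was not tested.

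**Figure D4:**
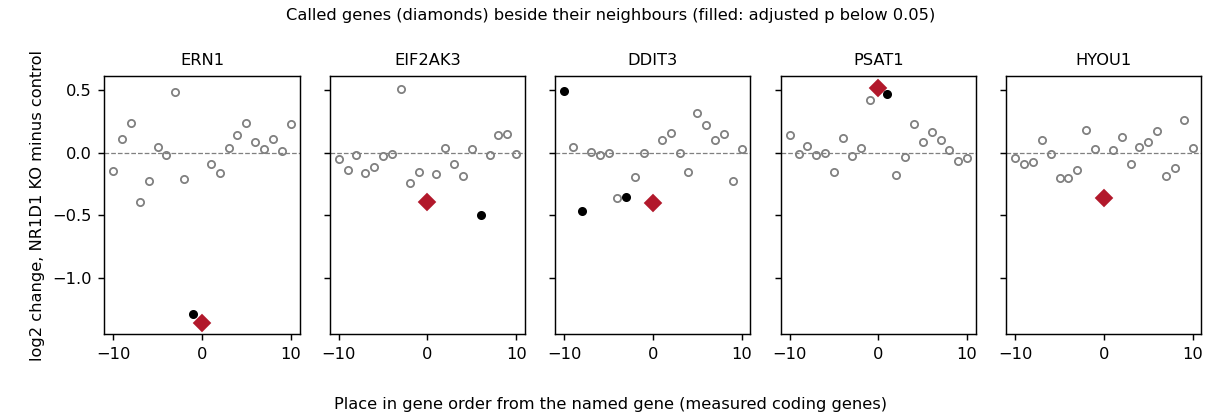
For each of the 5 called genes the log2 change (y axis) is drawn as a diamond among the 10 measured coding genes on either side in gene order (x axis, no distances), filled where the adjusted p was below 0.05. ICAM2 sits at -1.29 beside ERN1 at -1.36, both neighbours of PSAT1 lie above 0, and HYOU1 has no called neighbour.

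The same windows were taken around called genes of the wider lists, and in several most neighbours had a change of the same sign. Of all named genes 49.0% lay below 0, 4.74% were called lower and 4.74% higher. Around CTH on chromosome 1, 16 of 20 neighbours lay below 0, with a median of -0.23 and 8 called lower. SARS1, also on chromosome 1, had 18 of 20 below 0, a median of -0.28 and 9 called lower. On chromosome 14 the neighbours of ERO1A had a median of -0.28 and 7 called lower. Those of SEC23A had -0.16 and 4 called lower, and those of SRP54 -0.14 and 5 called lower. The last pair of windows share 9 genes and each contains the other gene, so they are not separate stretches. Around GDF15 on chromosome 19, 15 of 20 neighbours lay below 0, with a median of -0.10 and 2 called lower. Among called rises, 15 of 20 neighbours of FAF2 lay above 0, with 4 called higher, and those of MCFD2 had a median of 0.14, with 3 called higher and 1 lower. The 20 neighbours of SHMT1 on chromosome 17 gave 0.047 with no call. Other windows were mixed, with 10 of 20 neighbours below 0 for SPCS3 and for TXNDC12, 11 for DGAT2 and 12 for IMPACT. Around VARS1 15 of 20 lay above 0, with 3 called lower and 3 called higher. The part of a shared shift of neighbours in these calls was not tested.

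Of the cell line's markers 7 of 8 were measured, with VIM higher and CD44 lower in the knockout at adjusted p of 0.0337 and 0.0324. Of the luminal and hormone receptor markers listed as low or absent in these cells 6 of 8 were measured. ESR1 gave 5.19 ± 0.074 and 5.19 ± 0.25, and PGR 3.99 ± 0.029 and 4.05 ± 0.025 (control and knockout, log2, SD, n = 3 each), but without detection calls the arrays cannot show absence. GATA3 was lower, with means of 7.48 and 6.75 (limma adjusted p = 0.00166), and EPCAM higher, with 7.22 and 7.62 (0.0286). KRT8 gave 6.59 and 6.88 and FOXA1 5.05 and 4.96, and neither was called. GATA3, EPCAM and KRT8 thus stood above ESR1 and PGR, and the markers of this list were not uniformly dim. Of 6 leukocyte markers CD14 and CD68 were measured. CD14 gave means of 4.95 and 4.66 and CD68 of 10.87 and 10.42 (control and knockout), and CD68 fell (limma adjusted p = 0.0167). The mean over both, 7.84 to 7.97 on control and 7.50 to 7.61 on knockout arrays, joins a dim and a bright gene. Of 6 fibroblast markers 2 were measured and neither passed, and of 4 endothelial markers 3 were measured and KDR rose (0.00628). The part of these shifts in the results above was not tested. The annotation gave no probe set the name NR1D1, and the knockout itself was therefore not checked here.

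**Figure D5:**
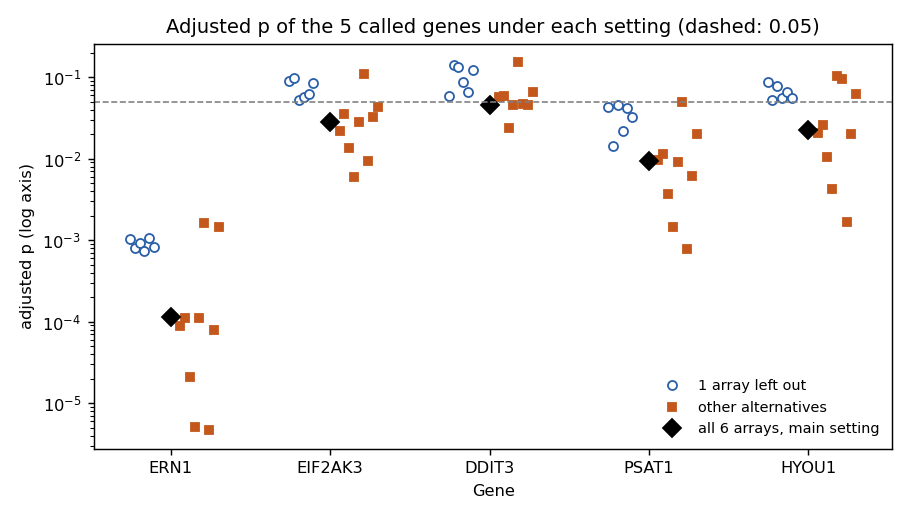
Adjusted p (y axis, log scale) of the 5 called genes (x axis) with all 6 arrays (diamonds), with 1 array left out (open circles) and under the other alternatives (squares, 9 at most), with a dashed line at 0.05. ERN1 stays at or below 0.00161 throughout, whereas the leave-out values of EIF2AK3, DDIT3 and HYOU1 all lie above the line.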

How the data were processed

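The authors deposited 1 table of log2 probe set values for 53617 probe sets on 6 arrays. The log2 scale was read from the range of the values, which was 1.16 to 13.75 over all arrays. The array medians were nearly equal, at 5.18 to 5.22. Per the labels' protocols, total RNA was amplified with a GeneChip whole-transcript kit and labelled with biotin. Background correction, normalization, summarization and genome build were not stated in the labels or files used here, and an error in the assumed scale would change every fold.

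Probe sets were named through the platform's annotation table, and 779 genes had several, of which the brightest over all arrays was used. Groups follow the genotype label, and the knockout was set against control by limma 3.58.1 under R 4.3.3 (lmFit and eBayes, two-sided), with Benjamini-Hochberg adjustment over 14884 genes and no filter on dim genes. Over all genes the standard error of the change had a median of 0.101, and the number of arrays limits the precision. The fit was tested on simulated data. The stress-response genes, the branches and the wider lists were chosen with earlier results of these data known, so no list was tested as a set. Every measured gene of the branches is named, and from each wider list up to 3 called genes in each direction. RefSeq tables (GRCh38.p14) gave gene order and promoters, and 28 of the 30 genes had a promoter. Alternatives were 9 settings and 6 fits that each left out 1 array. Plots used matplotlib 3.10.9 (Python 3.11.15).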

Additional observations from a re-analysis of the deposited data

How the results depend on the processing

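All 15 alternatives were fixed with earlier results of these data known. ERN1 kept its direction and its call in all of them (adjusted p of 4.65e-06 to 0.00161), and PSAT1 in all but the fit of all probe sets together, which changes both the variance prior and the adjustment. Among the 19 genes that fit left 1 fall and 0 rises, and the cause was not tested. With 1 array left out the falls were 1 and the rises 1 each time. Over all genes the falls were 387 to 531 and the rises 336 to 518 with 1 array left out, against 706 and 706 with all arrays. They were 306 and 233 when all probe sets were fitted together, 856 and 1031 without the dimmest 50% of genes, and 909 and 1044 with a trended, robust prior. The median of the ATF4 branch ranged from -0.066 to 0.047 with 1 array left out and was 0.049 without the dimmest 50% of genes, and that of the ATF6 branch ranged from -0.37 to -0.20 with 1 array left out. With 1 array left out PHGDH ranged from -0.13 to 0.11 (above 0 at 0.044 without control replicate 3 and at 0.11 without knockout replicate 1), SHMT2 from -0.065 to 0.013 (above 0 at 0.003 without control replicate 2 and at 0.013 without knockout replicate 3) and ATF6 from -0.072 to 0.0065 (above 0 without knockout replicate 1). None of these was called under any alternative. No rescaling moved the median of all genes by more than 0.0096.

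With the replicate number as a block 2 of the genes fell, ERN1 and EIF2AK3, against 4 without it. Same-numbered arrays did not deviate together over all genes (correlations of 0.055, 0.068 and -0.11). A correlation over all genes cannot show whether same-numbered arrays were handled together or shared a shift in part of the genes.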
